A study of Mus musculus with 12 samples.

Results

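The mesothelium is the single-cell serosal layer that covers the lung as visceral pleura. It makes lubricating glycoproteins and hyaluronan, and it keeps features of both epithelium (keratins) and mesenchyme. The 7 genes described here, Msln, Upk3b, Upk1b, Wt1, Lrrn4, Gpm6a and Rspo1, were taken by name as genes that mark this layer, out of 55414 genes in the table. The rule used no measured value, although the list was drawn up with earlier results of these data known. Of the 7, 6 were high enough to be tested (1 TPM or more in 6 or more libraries), as were 15148 genes in all, and Wt1 was not.

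Whole-lung RNA was sequenced from 12 C57BL/6J mice given 50 µg of lipopolysaccharide (LPS), a bacterial cell wall component that induces acute lung injury, and the lungs were taken on day 4. The 6 IL-10 B-KO mice were bred from a floxed Il10 allele and Mb1-Cre, a recombinase driven from the B cell gene Cd79a, and the 6 IL-10 B-WT mice were their controls. They are called knockout and control lungs from here on. The alleles carried by the controls and the ages of the mice are not given in the sources used here, and mice without LPS were not analysed here. The comparison asked how the lung differs when B cells cannot make IL-10. TPM, the length-scaled transcript abundance that RSEM gives, divides reads by gene length and scales each library to a common total (column sums between 991646 and 994430), so that levels of different genes can be compared, but the read depth behind a value is unknown. In control lungs Il10 lay between 0 and 0.88 TPM and between 0 and 0.58 TPM in knockout lungs, so that whole-lung Il10 does not check the labels. Cd79a lay between 15.3 and 258.6 TPM against 0 and 5.73 TPM. The summed TPM of 7 B cell genes was between 69.0 and 837 in control lungs and between 7.5 and 17.0 in 4 knockout lungs, whereas knockout lungs 2 and 6 held 82.5 and 59.7. The loss of IL-10 from B cells and the lower level of B cell transcripts cannot be told apart in the comparison of the 2 genotypes, and every difference below is one between these lungs as they were. The difference between genotypes without knockout lungs 2 and 6 is given for each member and for the ratios of members that passed. Summed TPM, orders by median, counts at an unadjusted p and correlations were not recomputed without them.

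The members differ in what they encode. Msln encodes mesothelin, a surface glycoprotein that binds the mucin Muc16. Upk3b and Upk1b encode uroplakins, membrane proteins best known from the urothelium, of which Upk1b is a tetraspanin. Wt1 encodes a zinc finger transcription factor of the developing and adult serosa. Lrrn4 encodes a leucine-rich repeat membrane protein, Gpm6a a membrane glycoprotein of the proteolipid family also abundant in neurons, and Rspo1 a secreted R-spondin, which strengthens Wnt signaling through Lgr receptors.

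Promoter sequence was available for 4 members from RefSeq (GRCm38.p6), and 3 windows are shown, 2 for members that were higher among knockout lungs by an unadjusted p and 1 for a member that was not, to put their letters side by side. Each runs 5′ to 3′ from base -250 to base -51 before the transcript start, and capitals mark GGAATG or its reverse complement CATTCC, the core letters bound by TEAD factors.
Upk3b, chr5:136038246-136038445, plus strand: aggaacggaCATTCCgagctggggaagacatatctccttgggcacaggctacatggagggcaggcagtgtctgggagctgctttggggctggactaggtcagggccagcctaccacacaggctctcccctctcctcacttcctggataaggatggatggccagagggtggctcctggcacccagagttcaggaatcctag
Lrrn4, chr2:132880913-132881112, minus strand: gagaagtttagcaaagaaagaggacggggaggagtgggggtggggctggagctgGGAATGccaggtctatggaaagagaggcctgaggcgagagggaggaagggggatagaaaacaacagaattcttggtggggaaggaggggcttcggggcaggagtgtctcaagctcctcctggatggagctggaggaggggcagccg
Rspo1, chr4:124986180-124986379, plus strand: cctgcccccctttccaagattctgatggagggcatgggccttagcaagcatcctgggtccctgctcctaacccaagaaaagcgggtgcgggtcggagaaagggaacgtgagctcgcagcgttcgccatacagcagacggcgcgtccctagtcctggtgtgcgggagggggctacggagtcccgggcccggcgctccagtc
The Upk3b window held the motif on the opposite strand with its first base at -241, and the Lrrn4 window held it on the gene's strand at -196. The Rspo1 window held none of the 5 motifs searched on both strands. Beside the motif in capitals, these were GCGTGGG as the core bound by EGR and WT1 factors and GGGCGG for the GC box that Sp1 binds. The others were TATAAA, the letters of a TATA box, and CAGGTG as the E-box of Snail factors. The windows end at base -51, so that the core promoter nearer the transcript start was not searched for a TATA box. Of the 2 windows of Gpm6a, 1 also held GGAATG, at -125, and the other held TATAAA on the opposite strand, at -211. The window with GGAATG (chr8:54779184-54779383) belongs to a start far upstream of the gene span given below, which begins at 54954843. The other window (chr8:54954478-54954677) lies next to that span. Gpm6a had a log2 fold change of 0.024 between genotypes. Of 32851 promoter windows of this length, 10.7% hold GGAATG, 3.27% the EGR and WT1 core and 24.6% the GC box. The letters TATAAA are in 9.14% and the E-box in 14.4%, and a match describes letters only.

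All 7 members were above 0 TPM in each of the 12 lungs, and Msln was the most abundant in 10 of them. By median TPM, Msln led in control lungs (12.2), followed by Gpm6a (7.87), Upk1b (7.57), Rspo1 (5.73), Upk3b (2.63), Lrrn4 (0.420) and Wt1 (0.230). The ranges of genes next to each other in this order overlapped, so that the order is not firm. In knockout lungs the order was Msln (56.5), Upk1b (8.29), Gpm6a (7.59), Upk3b (7.52), Rspo1 (6.34), Lrrn4 (2.30) and Wt1 (1.20). Upk3b stood above Rspo1 there, with overlapping ranges (1.35 to 16.4 and 0.970 to 18.7 TPM). The summed TPM of the 7 was 20.0 at the lowest, 43.4 at the median and 120.1 at the highest control lung, and 58.7, 106.2 and 155.4 in knockout lungs. Msln made up between 22.0% and 76.6% of that sum in control lungs and between 41.3% and 84.2% in knockout lungs. In bulk tissue, a larger number of mesothelial cells and more RNA of these genes per cell cannot be told apart.

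Between genotypes, the members lay on both sides of an unadjusted p of 0.05, which is not in itself a difference between members. Msln and Lrrn4 were higher in knockout lungs at 0.05 by both an unadjusted limma p and an exact permutation p. Upk3b was higher by limma alone (exact permutation p 0.0584), and Wt1, not tested in limma, by the exact permutation p. Upk1b, Gpm6a and Rspo1 were not higher by either. No member passed the threshold of an adjusted p of 0.05 or less with an absolute log2 fold change of 1 or more (limma, Benjamini-Hochberg over 15148 genes), which 75 genes or 0.495% passed, 0.0264% of all genes being higher. At an unadjusted limma p of at most 0.05, 3 of the 6 members tested were higher in knockout lungs, namely Lrrn4, Msln and Upk3b, against 6.83% of all genes tested, and none was lower, against 5.71%. All 6 had a log2 fold change above 0, as did 63.2% of all genes, with a median of 0.60 beside 0.10 for all genes tested. Lrrn4 reached 1 TPM in 5 knockout lungs and in only 1 control lung, so that it passed the filter through the group in which it was high and these counts are a description.

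**Figure D1:**
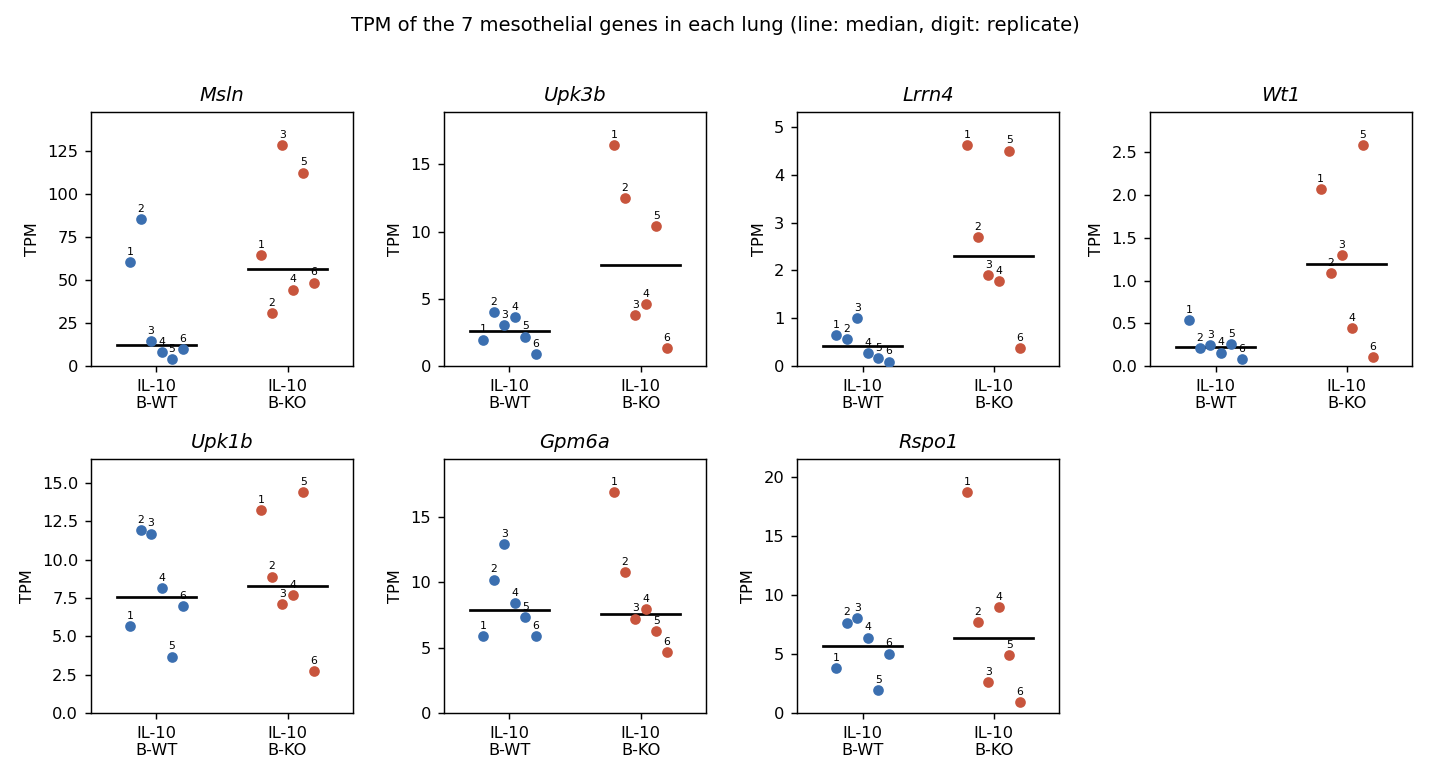
TPM of each of the 7 genes (vertical axes, from 0) in the 6 knockout and 6 control lungs; points are lungs with their replicate number and lines are medians. In the Lrrn4 panel 5 of 6 knockout lungs sit above every control lung, while the groups of Upk1b, Gpm6a and Rspo1 overlap throughout.

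Lrrn4 (ENSMUSG00000043110, chr2:132868305-132880891, minus strand, GRCm38) was 0.1, 0.420 and 1.00 TPM at the lowest, median and highest control lung and 0.380, 2.30 and 4.61 TPM in knockout lungs. In 5 of 6 knockout lungs it was above every control lung, and lung 6 was the exception. At least 4 of 6 knockout lungs lay above every control lung for 2.66% of all genes tested. The means were 0.460 ± 0.342 and 2.65 ± 1.66 TPM (SD, n = 6 each). On the log2(TPM + 1) scale the difference was 1.20 (SE 0.31), with an unadjusted p of 0.00181 and an adjusted p of 0.132 in limma, and an exact two-sided permutation p of 0.00866. With 0.1 added in place of 1 it was 2.21 (adjusted limma p 0.156). When each lung was left out in turn, the adjusted limma p was under 0.05 only without knockout lung 6, the lowest of its group (difference 1.46, adjusted limma p 0.0295). Without knockout lungs 2 and 6 the difference was 1.48 (adjusted limma p 0.0489), and no call is drawn from these fits, since both leave out a lung seen to be low.

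Wt1 (ENSMUSG00000016458, chr2:105126529-105173616, plus strand) was at 0.0800, 0.230 and 0.540 TPM in control lungs and at 0.110, 1.20 and 2.58 TPM in knockout lungs. Lungs 1, 2, 3 and 5 of the knockout group were above every control lung, and lungs 4 and 6 lay within the control range. The difference of the mean log2(TPM + 1) was 0.76, with an exact two-sided permutation p of 0.0260 (n = 6 each). At these levels, close to the rounding of the table to 2 decimals, the fold is compressed by the added 1. With 0.1 added the difference was 1.65, with the same exact permutation p. The exact p was 0.0520 without any 1 of knockout lungs 1, 2, 3 or 5. Without lungs 2 and 6 together the difference was 0.99, with an exact permutation p of 0.0190.

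Upk3b (ENSMUSG00000042985, chr5:136038496-136046487, plus strand) was 0.900, 2.63 and 4.03 TPM in control lungs and 1.35, 7.52 and 16.4 TPM in knockout lungs. Knockout lungs 1, 2, 4 and 5 exceeded every control lung, lung 3 lay just under the highest of them, and lung 6 was among the lowest of all. The log2 fold change was 1.11 (SE 0.44), with an adjusted limma p of 0.349 and an exact two-sided permutation p of 0.0584. Without knockout lung 6 it was 1.44, with an exact permutation p of 0.00866, and without lungs 2 and 6 it was 1.31, with an exact permutation p of 0.0190.

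Msln (ENSMUSG00000063011, chr17:25748613-25754378, minus strand) was 4.39, 12.2 and 85.5 TPM in control lungs and 30.7, 56.5 and 128.1 TPM in knockout lungs. The 4 control lungs 3 to 6 were below every knockout lung, whereas lungs 1 and 2 held 60.5 and 85.5 TPM, within the knockout range. The log2 fold change was 1.76 (SE 0.64), with an adjusted limma p of 0.324. It was larger than that of Lrrn4 with 1 added and smaller with 0.1 added (1.85 against 2.21). The exact two-sided permutation p was 0.0390, and it was above 0.05 in 8 of the 12 cases in which a lung was left out. Without knockout lungs 2 and 6 the difference was 2.11, with an exact permutation p of 0.0571.

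Upk1b, Gpm6a and Rspo1 showed no difference that passed any test. Upk1b (ENSMUSG00000049436, chr16:38773184-38800328, minus strand) was 3.69, 7.57 and 11.9 TPM in control lungs and 2.73, 8.29 and 14.4 TPM in knockout lungs, with a log2 fold change of 0.10 and a 95% interval from -0.64 to 0.84. Gpm6a (ENSMUSG00000031517, chr8:54954843-55060871, plus strand) was 5.90, 7.87 and 12.9 TPM against 4.69, 7.59 and 16.8 TPM, with a log2 fold change of 0.024 and an interval from -0.56 to 0.61. Rspo1 (ENSMUSG00000028871, chr4:124986430-125009099, plus strand) was 1.95, 5.73 and 8.04 TPM against 0.970, 6.34 and 18.7 TPM, with a log2 fold change of 0.094 and an interval from -0.94 to 1.12. Their exact two-sided permutation p-values were 0.784, 0.926 and 0.862. Without knockout lungs 2 and 6 the log2 fold changes were 0.39, 0.12 and 0.41, with exact permutation p-values of 0.257, 0.714 and 0.448. The intervals for Upk1b and Gpm6a lie under a log2 fold change of 1 in either direction and that for Rspo1 does not, and the sign of all 3 differences turned under other scalings. Gpm6a is overlapped by other annotated genes on its own strand and Rspo1 by the antisense gene Gm12930, and strand use in the counting is not given in the sources used here.

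**Figure D2:**
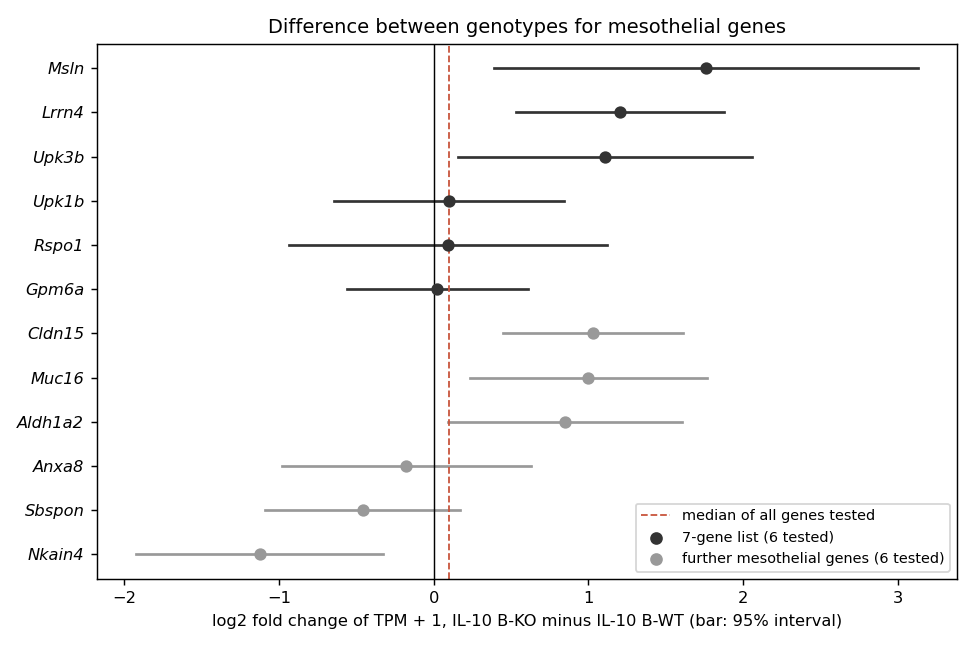
Log2 fold change of TPM + 1 (horizontal axis, knockout minus control) for 6 members and 6 further mesothelial genes; bars are 95% limma intervals and the dashed line is the median of all genes tested, 0.10. Msln, Lrrn4 and Upk3b lie to the right of 0 with their intervals, those of Upk1b, Rspo1 and Gpm6a include 0, and that of Nkain4 lies to the left.

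The members also differed in how they varied from lung to lung. Knockout lung 6 had the lowest level of its group for 6 of the 7 members, Msln being the exception, and knockout lung 1 was above the highest control lung for 6 of the 7. The summed TPM of Wt1, Upk3b and Lrrn4 was 1.08, 3.63 and 4.80 in control lungs and 1.84, 11.7 and 23.1 in knockout lungs. The summed TPM of Upk1b, Gpm6a and Rspo1 was 13.0, 20.5 and 32.6 against 8.39, 25.1 and 48.8. Within knockout lungs, Lrrn4 and Upk1b had a Pearson r of 0.991 (exact permutation p = 0.0111, adjusted p = 0.133) and a Spearman rho of 0.886 (exact permutation p = 0.0333, adjusted p = 0.245, n = 6). The r was 0.979 without the 2 lungs farthest from the median of Lrrn4. In control lungs r was 0.591 (exact permutation p = 0.217, adjusted p = 0.479) and rho 0.429 (exact permutation p = 0.419, adjusted p = 0.629, n = 6), and 0.5 without 2 lungs. None of the 42 relations among members, 21 in each genotype, had an adjusted p of at most 0.05.

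The ratio of members was then compared within each lung, a comparison chosen after the values were seen. It reuses the levels compared above, and adjustment over pairs does not cover that choice, so that its p-values are a description. The log2 ratio of Lrrn4 to Upk1b (both as TPM + 1) was -2.57 ± 0.45 in control lungs and -1.47 ± 0.10 in knockout lungs (SD, n = 6 each). All 6 knockout lungs, lung 6 included, were above every control lung. For the levels of single genes, groups did not overlap for 1.02% of those tested, and a share for ratios was not counted. The difference of 1.11 had an exact two-sided permutation p of 0.00217, the smallest that 6 against 6 allows, and an adjusted p of 0.0227 over the 21 pairs of members. The ratio of Lrrn4 to Gpm6a was -2.68 ± 0.31 and -1.50 ± 0.56, again without overlap, with the same exact permutation p and adjusted p. The gap was narrow here, with knockout lung 6 at -2.04 beside control lung 1 at -2.06. The ratio of Upk3b to Upk1b differed by 1.01 and that of Upk3b to Gpm6a by 1.08, each with an exact two-sided permutation p of 0.00866 and an adjusted p of 0.0455. The adjusted p of both went above 0.05 in 11 of the 12 cases in which a lung was left out, and that of the Lrrn4 ratios in none. Without knockout lungs 2 and 6 both Lrrn4 ratios had an adjusted p of 0.0667, at an exact permutation p of 0.00952, the smallest that 4 against 6 allows. The remaining 17 pairs did not pass an adjusted p of 0.05, among them all 6 pairs with Msln and all 6 with Wt1. The ratios of Upk1b to Gpm6a and of Upk1b to Rspo1 differed by 0.08 and 0.01 between genotypes. The library total cancels in a ratio apart from the added 1, which matters for a gene as low as Lrrn4. With 0.1 in its place the difference of Lrrn4 to Upk1b was 2.11 and that of Lrrn4 to Gpm6a 2.19. The exact permutation p of Lrrn4 to Gpm6a was then 0.00433 (adjusted p 0.0303), no longer the smallest that 6 against 6 allows.

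**Figure D3:**
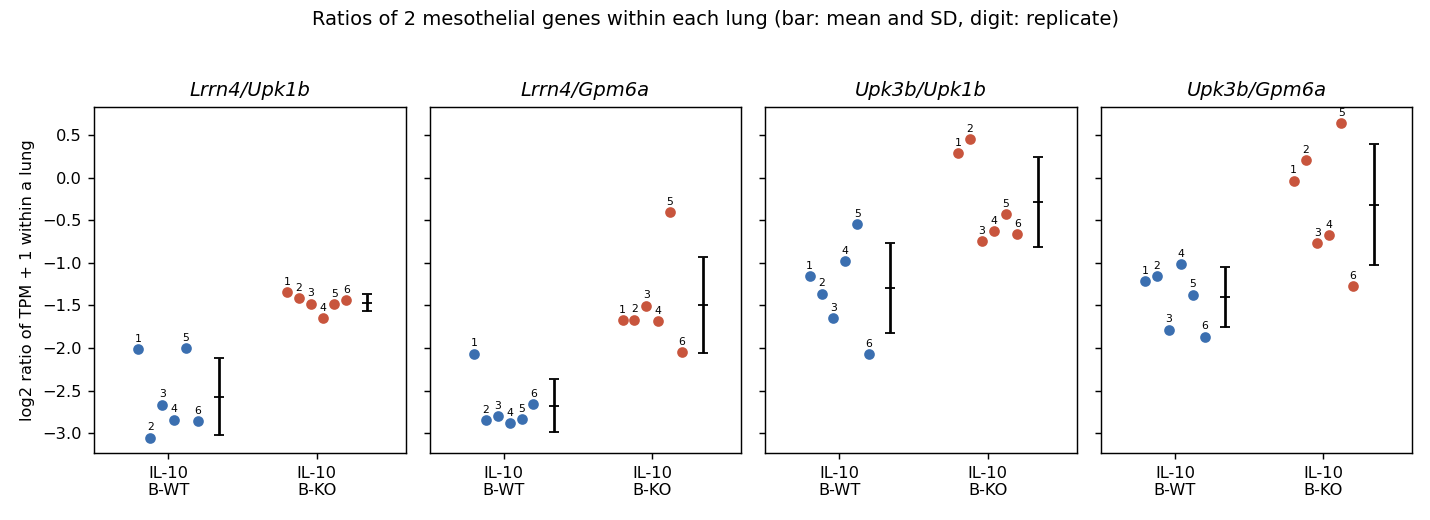
Log2 ratio of TPM + 1 of 2 members within a lung (vertical axis) for 4 pairs; points are lungs with their replicate number, and bars at the side of each group are the mean and SD. For Lrrn4/Upk1b and Lrrn4/Gpm6a all 6 knockout lungs lie above every control lung, and for Upk3b/Upk1b 3 of 6 do.

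Further genes of the mesothelium, 12 that are not members, were mixed in direction, unlike the 6 members tested, which all had a log2 fold change above 0. None of the 6 that were tested passed the threshold, and 3 had a log2 fold change above 0 and 3 below. At an unadjusted limma p of at most 0.05, 3 of the 6 were higher (Cldn15, Muc16 and Aldh1a2), against 6.83% of all genes tested. Of the same 6, 1 was lower (Nkain4), against 5.71%. Their median log2 fold change was 0.34 beside 0.10 for all genes tested. The summed TPM of the 12 had a median of 75.1 in control lungs and 64.6 in knockout lungs. Cldn15, a tight junction claudin, was 1.01, 1.49 and 2.58 TPM in control lungs and 2.18, 4.46 and 9.43 TPM in knockout lungs, with 4 of 6 knockout lungs above every control lung (log2 fold change 1.03, SE 0.27, adjusted limma p 0.137). Muc16, the mucin that mesothelin binds, was 0.280, 0.825 and 1.03 TPM against 0.480, 2.30 and 8.05 TPM, with lung 6 again the only knockout lung in the control range (log2 fold change 1.00, SE 0.36, adjusted limma p 0.314). It too passed the filter through 5 knockout lungs and 1 control lung. Aldh1a2, which makes retinoic acid, was 1.18, 2.17 and 3.28 TPM against 0.970, 5.47 and 8.92 TPM (log2 fold change 0.85, adjusted limma p 0.357). Nkain4, a partner of the sodium pump, went the other way at 21.1, 37.9 and 60.4 TPM against 5.94, 20.2 and 28.6 TPM (log2 fold change -1.12, SE 0.37, adjusted limma p 0.285). Anxa8 and Sbspon, named to complete the genes tested, had log2 fold changes of -0.18 and -0.46 (adjusted limma p 0.849 and 0.507).

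Among the 6 that did not pass the filter, Bnc1 and Pkhd1l1 are named after their values were seen. Bnc1, a zinc finger factor of mesothelium and other epithelia, was 0, 0.0950 and 0.220 TPM in control lungs and 0.130, 0.395 and 0.8 TPM in knockout lungs (exact two-sided permutation p = 0.0152). Pkhd1l1 was 0.130, 0.310 and 0.700 TPM against 0.360, 1.35 and 2.46 TPM (exact two-sided permutation p = 0.0108). In both, 4 of 6 knockout lungs were above every control lung. The rest of these 6, Ildr2, Bnc2, Fgf9 and Calb2, had exact two-sided permutation p-values of 0.123, 0.831, 0.483 and 0.957. Calb2, which encodes calretinin and is widely used to stain mesothelium, stayed between 0.140 and 0.830 TPM in control lungs and between 0 and 0.820 TPM in knockout lungs, so that this marker was close to 0 in both.

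**Figure D4:**
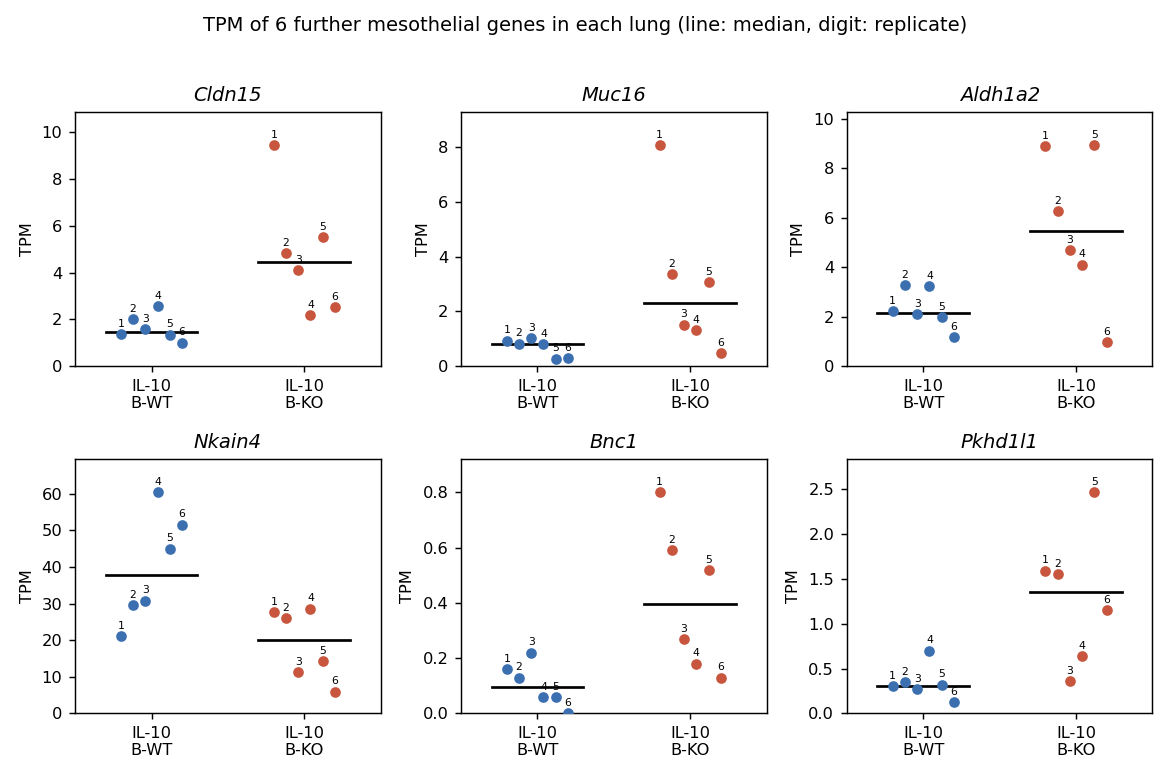
TPM of 6 further mesothelial genes (vertical axes, from 0) in each lung of both genotypes; points are lungs with their replicate number and lines are medians. The knockout median is higher for Cldn15, Muc16, Aldh1a2, Bnc1 and Pkhd1l1 and lower for Nkain4, for which 3 of 6 knockout lungs are below every control lung. Cldn15, Muc16, Aldh1a2 and Nkain4 had the lowest unadjusted limma p of those tested, and Bnc1 and Pkhd1l1 were picked after their values were seen. Anxa8 and Sbspon, also tested, had log2 fold changes of -0.18 and -0.46 and are not drawn.

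The genes whose levels followed the members most closely were looked up over the 12 lungs, by Pearson r of log2(TPM + 1) with the mean standardized level of the 6 members tested. Muc16 ranked first (r = 0.904) and Aldh1a2 second (0.886), ahead of Sbsn (0.865), Akr1b3 (0.841), Zfp560 (0.819), Adamtsl1 (0.819), Prr15 (0.810), Yrdc (0.810), Gm19585 (0.801) and Zfp825 (0.801). After each gene was centred within its genotype, Muc16 remained first (0.900), followed by Camkmt (0.893), Akr1b3 (0.876), Aldh1a2 (0.872), Zfp689 (0.862), Gpc3 (0.850), Sbsn (0.848), Gm19585 (0.840), Bicdl1 (0.834) and Adamtsl1 (0.834). Msln itself had the lowest r of the members with this mean, 0.520 over all lungs and 0.381 within genotypes, where the others lay between 0.756 and 0.908 and between 0.810 and 0.934. These are descriptions over 12 libraries that share 2 genotypes.

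Genes that mesothelium shares with epithelium were also examined. Of 8 keratin and junction genes, all tested, none passed the threshold. At an unadjusted limma p of at most 0.05, 3 were higher and 1 was lower, against 6.83% and 5.71% of all genes tested. Their median log2 fold change was 0.73. Krt8, Krt18 and Krt19, intermediate filament keratins of simple epithelia and mesothelium, had log2 fold changes of 1.18, 1.20 and 0.75. Cdh2, the N-cadherin of mesothelium, heart and nerve, was 1.67, 3.43 and 4.87 TPM in control lungs and 0.350, 0.895 and 1.38 TPM in knockout lungs. All 6 knockout lungs were below every control lung (log2 fold change -1.11, SE 0.23, adjusted limma p 0.0558, exact two-sided permutation p = 0.00217). Groups did not overlap, in either direction, for 1.02% of all genes tested. Of 8 genes of serosal lubrication, 5 were tested, none passed the threshold and 2 were higher by an unadjusted p of 0.05 or less, with a median log2 fold change of 0.06. These were Prg4, which encodes lubricin (log2 fold change 1.12, medians 0.765 and 3.91 TPM), and the hyaluronan receptor Cd44 (1.02, medians 32.5 and 58.8 TPM).

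Rspo1 acts on the Wnt pathway, and of 15 R-spondins, receptors, feedback regulators and targets, 11 were tested. None passed the threshold. At an unadjusted limma p of at most 0.05, none was higher and 2 were lower, against 6.83% and 5.71% of all genes tested. The median log2 fold change of the 11 was -0.15 beside 0.10 for all genes tested. Axin2, a feedback inhibitor and target of Wnt signaling, was 8.80, 9.85 and 12.4 TPM in control lungs and 4.92, 7.03 and 8.47 TPM in knockout lungs. Its groups did not overlap, as for 1.02% of all genes tested (log2 fold change -0.53, SE 0.16, adjusted limma p 0.237). Lef1, a transcription factor of the pathway also made in lymphocytes, was 4.22, 6.53 and 14.6 TPM against 1.26, 2.88 and 7.20 TPM (log2 fold change -1.01, adjusted limma p 0.232). The receptor Lgr5 stayed at 0.580 TPM or less. Its relatives, given beside it, were higher, with medians in control and knockout lungs of 1.135 and 0.745 TPM (Lgr4) and 1.745 and 0.835 TPM (Lgr6). Rspo1 was the most abundant R-spondin by median in both genotypes.

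Relatives of the members by gene family were also looked up. Upk1a, the other tetraspanin uroplakin tested, had a log2 fold change of -0.46 (adjusted limma p 0.536). Lrrn3 was 0.780, 3.01 and 3.91 TPM in control lungs and 0.360, 0.680 and 3.21 TPM in knockout lungs, a log2 fold change of -0.88 (adjusted limma p 0.299) opposite in sign to that of Lrrn4. Of 8 transcription factors of the serosa and its mesenchyme, 4 were tested and none passed the threshold. Tcf21 among them had medians of 41.7 and 18.5 TPM (log2 fold change -0.92, adjusted limma p 0.178).

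Markers of other cells were looked up as well. Of all genes tested, 6.83% were higher and 5.71% lower at an unadjusted limma p of at most 0.05. All 7 neutrophil genes were higher at an unadjusted limma p of at most 0.05, and their summed TPM lay between 285 and 2514 in control lungs and between 1048 and 7540 in knockout lungs. Of 7 macrophage genes 3 were higher (summed TPM between 99.9 and 910 against 298 and 1300), and of 7 alveolar type 2 cell genes 4 were higher (between 3293 and 17042 against 11476 and 20879). No neutrophil, macrophage or alveolar type 2 cell gene passed the threshold. Of 8 pericyte genes 5 passed it and fell (summed TPM between 191 and 448 against 57.0 and 184), where 0.495% of all genes passed. Fibroblast genes summed to between 263 and 810 TPM against 143 and 1060 TPM, with 1 of 8 lower at an unadjusted p. Of 7 smooth muscle genes 4 were lower at an unadjusted limma p of 0.05 or less (summed TPM between 262 and 1076 against 113 and 556), as were 2 of 8 endothelium genes (between 1527 and 3036 against 1509 and 2870) and 1 of 7 cardiomyocyte genes (between 71.3 and 1711 against 25.4 and 460). None of 5 club cell genes was, although all 5 had a log2 fold change under 0 (between 23214 and 99961 against 8415 and 105282). No alveolar type 1 cell, ciliated cell or adipocyte gene tested had an unadjusted limma p of at most 0.05. The part of these other cells in the levels of the mesothelial genes was not tested.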

How the data were processed

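Gene expression was analyzed in whole lungs of 6 IL-10 B-KO mice (knockout) and of 6 IL-10 B-WT mice (control) on day 4 after LPS, grouped by the labels. The authors deposited TPM values per gene, made with fastp, HISAT and RSEM on GRCm38.p5 (versions not given in the sources used here), unpooled and rounded to 2 decimals, with 0 unused columns. TPM keeps no depth, so no counting error can be given and precision rests on the spread between lungs.

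Genotypes were compared with limma 3.58.1 in R 4.3.3 (lmFit, eBayes with trend) on log2(TPM + 1) over genes that reached 1 TPM in 6 or more of the 12 libraries, with Benjamini-Hochberg adjustment, a threshold of adjusted p 0.05 and an absolute log2 fold change of 1. The study names 5 tools, limma among them. Single values were compared by exact two-sided permutation tests (924 arrangements). The scripts were tested on simulated data. Tables were handled with pandas 2.3.3 and NumPy 2.4.6 under Python 3.11.15, permutations with SciPy 1.17.1 and figures with matplotlib 3.10.9. Coordinates came from GENCODE M21 (GRCm38).

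The members and the 24 other lists were chosen with earlier results of these data known. Named were the 7 members, at most 4 genes of a described list (those past the threshold, then the lowest unadjusted p), Il10 and Cd79a, and the 10 genes most like the members in pattern. Exceptions are named where they stand. Of the genes this rule names, 1 is not reported here. Alternatives were array weights, the replicate block, leaving out each lung, other thresholds, quantile normalization, centring on the median, TPM rescaled with immunoglobulin genes removed, a pseudocount of 0.1, no filter, and a filter on a mean TPM of 5. Leaving out knockout lungs 2 and 6, and all within-lung ratios, were added after seeing the data.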

Additional observations from a re-analysis of the deposited data

Results flagged for a closer look

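Within groups of 6 lungs, a lung was singled out where its gap to the next lung took up more of the group's range than Dixon's 95% critical value allows. This was the case for 15 of 100 groups of values tested. Chance gives about 1 in 20 for independent, normally distributed values. These groups share lungs and include untransformed TPM, so that no excess is read from the count. No level of the 7 members was singled out. Among the ratios of members, that of Lrrn4 to Gpm6a was -2.06 in control lung 1 and -0.41 in knockout lung 5, each the highest of its group. The ratio of Upk1b to Gpm6a was lowest at -0.83 in control lung 5 and highest at 1.07 in knockout lung 5. The ratio of Gpm6a to Rspo1 was highest at 1.5 in control lung 5.

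Control lung 1 was the highest of its group for Krt8 (286.5 TPM, next 126.7), Krt18 (260.4, next 95.1), Prg4 (3.46, next 1.53) and Cd44 (117.9, next 42.6). In control lung 2, Cd79a was 258.6 TPM (next 24.8) and Lef1 14.6 TPM (next 8.03). In the knockout group, Krt18 was 412.0 TPM in lung 5 (next 209.0), Lef1 7.20 TPM in lung 1 (next 2.91), Upk1a 2.73 TPM in lung 2 (next 1.06) and Lrrn3 3.21 TPM in lung 2 (next 1.26).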

How the results depend on the processing

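At the adjusted threshold, no member passed under any alternative except the 2 that left out knockout lung 6. Without that lung 1 member passed, Lrrn4 (log2 fold change 1.46, adjusted limma p 0.0295; leave-one-out range of the count 0 to 1, of Lrrn4 1.05 to 1.46), as it did with knockout lungs 2 and 6 left out (1, at 1.48, adjusted limma p 0.0489). With an unadjusted p of 0.05 or less in its place, 3 passed. The adjusted limma p of Lrrn4 lay between 0.0295 and 0.316 over all alternatives. With a pseudocount of 0.1 Lrrn4 was 2.21 and Wt1 1.65. The filter of a mean TPM of at least 5 left no value for Lrrn4. The log2 fold changes of Lrrn4, Msln and Upk3b stayed above 0 throughout. Those of Upk1b, Gpm6a and Rspo1 changed sign. Without knockout lungs 2 and 6 they were 0.39, 0.12 and 0.41. Under median centring they were -0.0076, -0.084 and -0.014, under array weights -0.26, -0.15 and -0.18. For Gpm6a the value was -0.053 with quantile normalization and -0.027 in the limma and exact tests without immunoglobulin genes. With a lung left out they ranged from -0.071 to 0.36, from -0.16 to 0.16 and from -0.23 to 0.44.

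In the exact tests with a lung left out, Wt1 lay between 0.60 and 0.94 and Upk3b between 0.86 and 1.44, and Upk3b was 1.31 (exact permutation p = 0.0190) without lungs 2 and 6. Msln ranged from 1.40 to 2.20, with p above 0.05 without any 1 of control lungs 3 to 6 or knockout lungs 1, 3, 5 or 6, and was 2.11 (exact permutation p = 0.0571) without lungs 2 and 6. With a lung left out, the ratio differences ranged from 1.01 to 1.22 (Lrrn4 to Upk1b), 0.96 to 1.30 (Lrrn4 to Gpm6a), 0.85 to 1.16 (Upk3b to Upk1b) and 0.89 to 1.28 (Upk3b to Gpm6a), the last being 1.31 with a pseudocount of 0.1 (adjusted p 0.0511). Without lungs 2 and 6 they were 1.09, 1.36, 0.92 and 1.19, and none kept an adjusted p of 0.05, the smallest exact permutation p being 0.00952 there.

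The replicate numbers did not pair the lungs (correlations of deviations from -0.29 to 0.05). With the number as a block, 0 members passed, and 45 of all genes against 75. Over all genes, 92 passed with a pseudocount of 0.1, 6 with no filter, 27 without immunoglobulin genes, 39 with quantile normalization, 36 with centring, 318 with weights and between 19 and 604 with a lung left out. The cause of these changes was not tested. Centring and quantile normalization removed a median log2 fold change of all genes of 0.10.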
